A study of Mus musculus with 27 samples.

Results

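The comparison described here is that of cortex between mice whose brain had been infused with IgLON5 autoantibodies and mice infused with PBS, and it uses 9 of the 27 RNA-seq libraries of the study. Its members are the cortex libraries whose treatment label is IgLON5 (4 mice, numbered 8, 9, 16 and 17) and those whose treatment label is PBS (5 mice, numbered 14, 32, 33, 38 and 74), 1 library per mouse. All mice were C57Bl/6J wild-type males aged 8 weeks, and the infusate reached the right lateral ventricle from an osmotic pump at 0.25 μl per hour for 14 days. The antibody, α-IgLON5#1 and called IgLON5 antibody below, is polyclonal human IgG that binds IgLON5, purified from the plasma of a single patient, and PBS is the vehicle without antibody, so that the comparison holds the binding to IgLON5 and the presence of human IgG together. For that reason the 5 cortices of mice given control IgG (mice 10, 11, 15, 37 and 75) are set beside the values, although they form no part of the comparison. The labels call this IgG a non-reactive human monoclonal antibody and the study's methods call it IgG from healthy serum. The tissue came from the hemisphere opposite to the cannula. Reads were counted per gene, and levels are given as CPM, counts scaled to a common library total with TMM factors, always in the order of mice 14, 32, 33, 38 and 74 for PBS and of mice 8, 9, 16 and 17 for IgLON5 antibody.

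IgLON5 is a neuronal cell adhesion molecule of the immunoglobulin superfamily, held to the membrane by a lipid anchor, and autoantibodies to it occur in a neurological disease with deposits of the microtubule protein Tau. Antibodies bound to a cell surface can be read by complement component C1q and by Fcγ receptors, which in brain are found on microglia, the resident macrophages. Activated microglia are known to raise MHC proteins and to release chemokines, and chemokines and adhesion molecules admit blood leukocytes, among them B cells and plasma cells, which make antibody themselves.

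A gene was called higher or lower at an adjusted p under 0.05 in edgeR's quasi-likelihood test, with Benjamini-Hochberg adjustment over all 20271 tested genes, together with a change above 2-fold. The IgLON5 antibody cortices had 454 genes called higher than PBS (2.24% of the tested genes) and 1 gene called lower (0.00493%). The genes called higher comprised 390 protein-coding genes, 37 variable and 9 constant immunoglobulin genes. The median of their log2 fold changes was 2.26 against -0.02 over all tested genes. The largest increases among genes of which the groups did not overlap were found in immunoglobulin genes, in Marco, a scavenger receptor of macrophages, in the acute-phase gene Saa3, and in Acod1, the enzyme that makes itaconate in activated macrophages. Without the fold threshold 603 genes were higher (2.97%) and 15 lower (0.074%). In 637 of the tested genes (3.14%) every IgLON5 antibody cortex lay above every PBS cortex, which held for 357 of the 454 called genes, and in 255 genes (1.26%) every one lay below. In bulk tissue, more cells of a type and more RNA per cell cannot be told apart.

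**Figure D1:**
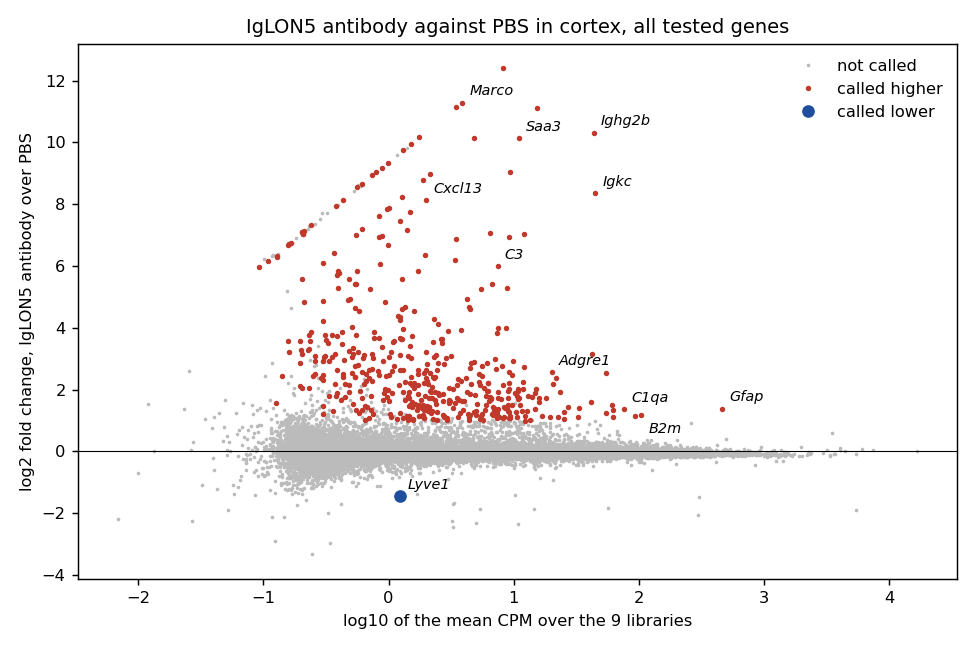
Log2 fold change of IgLON5 antibody over PBS cortex (vertical axis) against the log10 of the mean CPM over the 9 libraries (horizontal axis), 1 point per tested gene. The 454 genes called higher are red and reach a log2 fold change above 10, and the 1 gene called lower, Lyve1, is blue.

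The increases differed in size between the 4 IgLON5 antibody mice. Of the 454 called genes, 365 were highest in mouse 8, 61 in mouse 9, 19 in mouse 17 and 9 in mouse 16, and 318 were lowest in mouse 16. Without mouse 8 the test called 261 genes, 259 of them among the 454, and without both mouse 8 and mouse 9 it called 142, with 141 among the 454. In the latter fit 453 of the 454 genes still had a positive log2 fold change, with a median of 1.30. The calls that remained whichever of the 9 libraries was left out numbered 249.

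**Figure D2:**
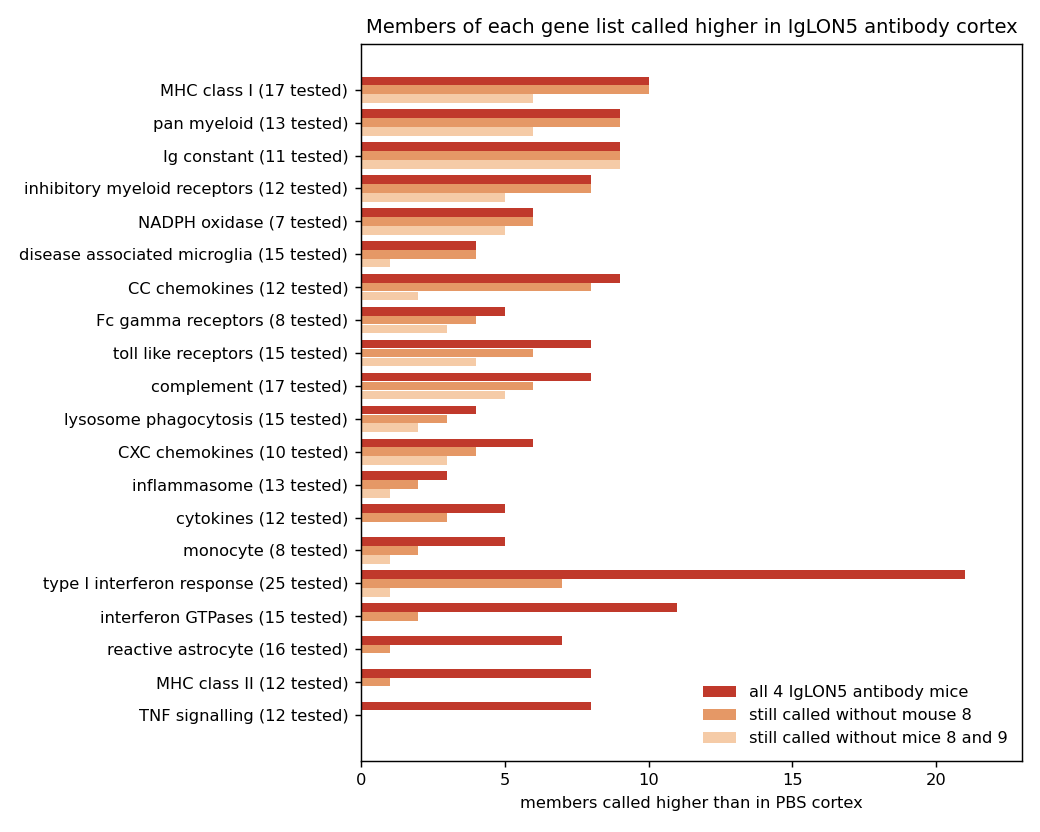
Number of members of each gene list called higher in IgLON5 antibody than in PBS cortex (horizontal axis), for lists with at least 3 such members, with all 4 mice (dark bars), still called without mouse 8 (middle bars) and still called without mice 8 and 9 (light bars). Immunoglobulin constant genes kept 9 of 9 calls in both cases, whereas the type I interferon list went from 21 to 7 and 1 and the TNF signalling list from 8 to 0.

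Depth ranged from 26827119 counts (IgLON5 antibody mouse 9) to 54199358 counts (mouse 17) over the 9 libraries. The labels name neurons as the cell type, whereas the material was dissected cortex, and homeostatic astrocyte, oligodendrocyte and endothelial markers summed to 6028 to 9091, 2584 to 3248 and 351 to 494 CPM in the IgLON5 antibody libraries. Markers of cortical excitatory neurons summed to 5072 to 6667 CPM in PBS and 5060.1 to 6621 CPM in IgLON5 antibody libraries. Meningeal collagen genes summed to 222 to 528 CPM in PBS, highest in mouse 38, and to 387, 166, 332 and 428 CPM in IgLON5 antibody cortices, lowest in mouse 9. Without both of these libraries 477 genes were called higher, 418 of them among the 454. Mice 32, 33 and 38 stood apart from PBS mice 14 and 74 in the unnamed gene ENSMUSG00000095041.7, at 79.7, 94.3 and 118 CPM against 291 and 347 CPM, and the 4 IgLON5 antibody mice had 264 to 423 CPM. Control IgG mouse 37 was low as well, at 91.1 CPM, and control IgG mice 10, 11, 15 and 75 had 208 to 352 CPM. All 4 IgLON5 antibody mice carry numbers from 8 to 17, a range that holds 1 PBS mouse. Without PBS mice 32, 33 and 38 the test called 218 genes higher (205 of the 454), while all 454 stayed on the higher side with a median log2 fold change of 2.46 and 452 had an unadjusted p under 0.05. With only mouse 14 as PBS control it called 0, with a smallest adjusted p of 0.14, 1189 genes higher and 828 lower at an unadjusted p under 0.05, and all 454 genes still on the higher side with a median log2 fold change of 2.44. The part of this difference between sets of mice in the results was not tested.

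Most constant genes of mouse immunoglobulins rose, the majority from levels near 0. Of 11 tested constant genes, 9 were called higher, and all 9 were kept without mouse 8 and without mice 8 and 9. Genes near 0 in PBS entered the test through other libraries, so that 9 of 11 depends on the count filter. Ighg2b (ENSMUSG00000076613.4, chromosome 12, 113302965 to 113307933, minus strand in GRCm38), the heavy chain of IgG2b, stood at 0.313, 0, 0, 0 and 0.0550 CPM in PBS and 52.6, 13.8, 38.8 and 285 CPM in IgLON5 antibody cortices. Every IgLON5 antibody mouse thus lay above every PBS mouse, and mouse 17 was the highest (log2 fold change 10.32 ± 1.24, SE, adjusted p = 7.0e-06, edgeR). Without mouse 17 the log2 fold change was 8.84, and without PBS mouse 14, which had the highest PBS value, it was 12.37. Control IgG cortices had 0 to 0.494 CPM. Ighg1 (IgG1) had no read in the 5 PBS cortices and 11.0, 3.50, 9.64 and 7.17 CPM in the IgLON5 antibody cortices, at least 439.6-fold higher when PBS is set at 3 counts over the group (adjusted p = 2.4e-05, edgeR). Igkc, the constant part of the kappa light chain, was at 1.06, 0.207, 0.0336, 0.158 and 0.0550 CPM in PBS against 106, 31.7, 60.7 and 201 CPM (log2 fold change 8.37 ± 0.83, adjusted p = 9.5e-07, edgeR, with a log2 fold change of 7.77 without mouse 17 and 9.75 without PBS mouse 14). Ighg3, Igha and the lambda genes Iglc1, Iglc2 and Iglc3 rose as well, by log2 fold changes of 9.04, 7.07, 7.02, 7.17 and 5.41.

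Ighm, the heavy chain of IgM, had a level in PBS already. It was at 24.5, 16.3, 13.8, 15.4 and 17.3 CPM in PBS and 159, 38.5, 88.7 and 117 CPM in IgLON5 antibody cortices, without overlap (log2 fold change 2.53 ± 0.37, adjusted p = 7.7e-05, edgeR). Jchain, which joins IgM and IgA into multimers and marks antibody-secreting cells, rose from 0.752, 0.266, 0.538, 0.504 and 0.385 CPM to 25.1, 4.94, 15.7 and 30.7 CPM (log2 fold change 5.30 ± 0.60, adjusted p = 3.8e-06, edgeR). Mouse 9 was the lowest for each of Ighg2b, Ighg1, Ighm, Igkc and Jchain. Ighg2c, the C57BL/6 counterpart of IgG2a, was the exception among the switched isotypes, with 2.94, 2.31, 2.29, 1.61 and 2.06 CPM in PBS and 2.36, 3.10, 3.21 and 2.44 CPM in IgLON5 antibody cortices (log2 fold change 0.31 ± 0.28, adjusted p = 0.85, edgeR). Its groups overlapped, and so did those of Ighd, the heavy chain of IgD. Ighe was too low to be tested.

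**Figure D3:**
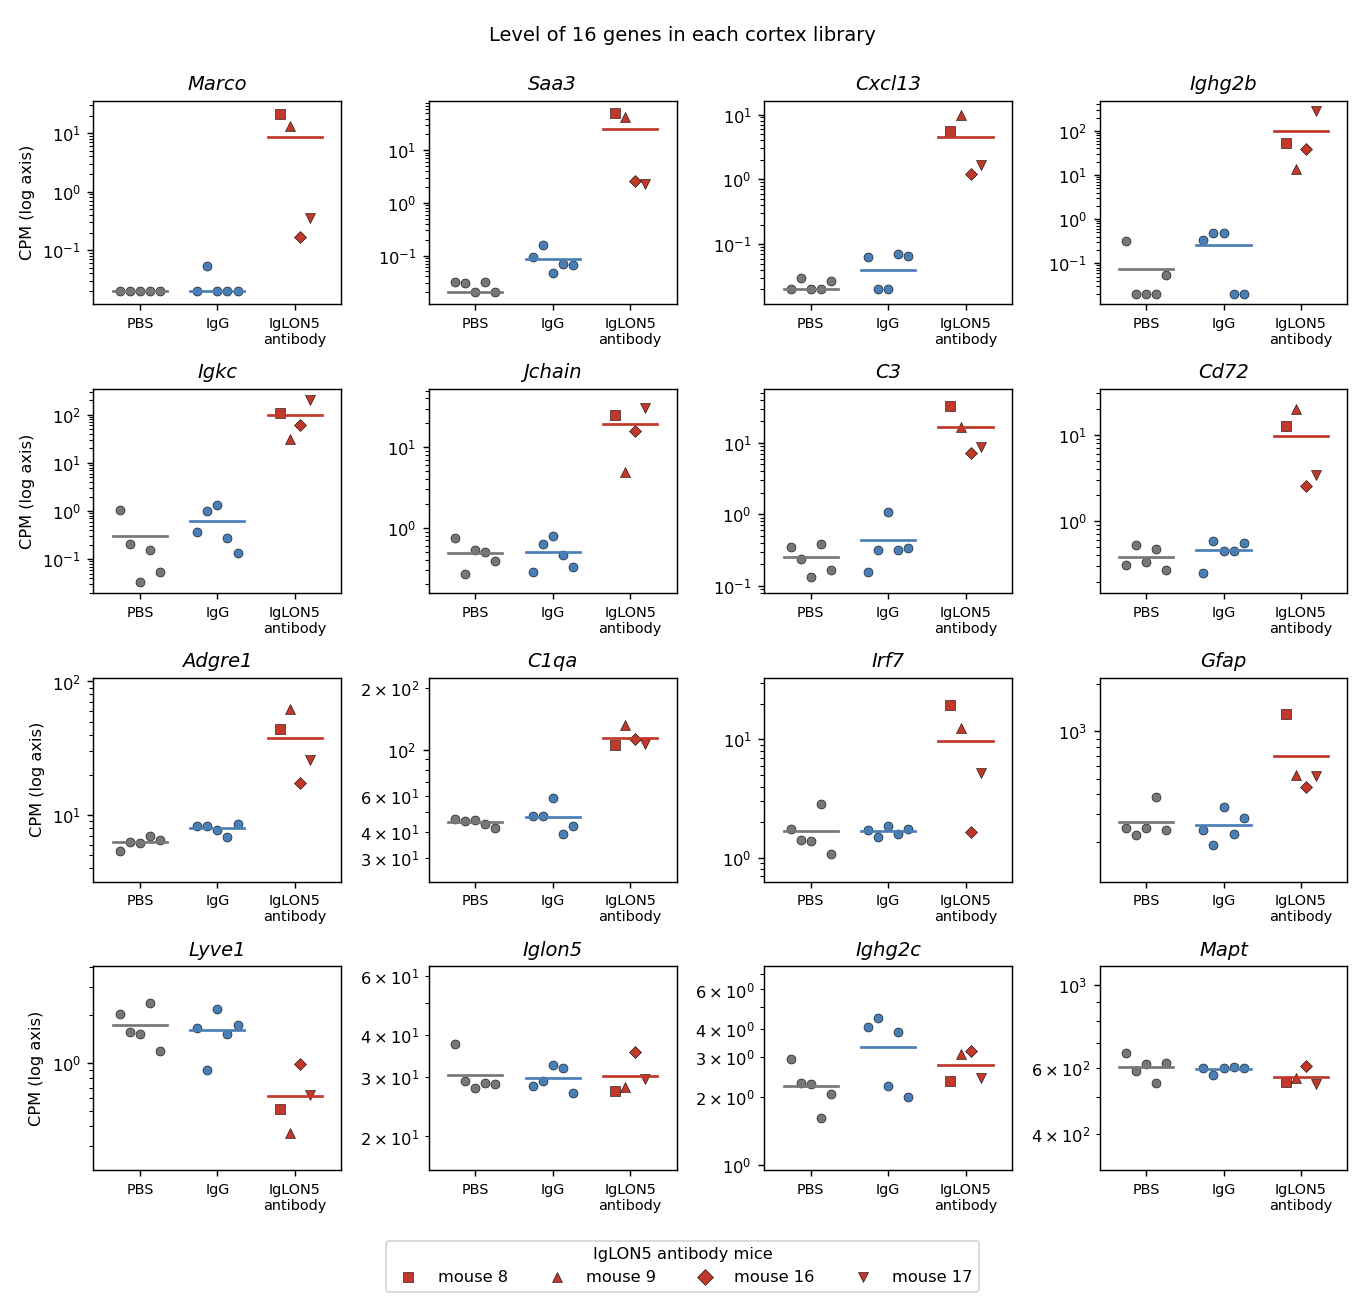
CPM on a log axis of 16 genes in each cortex library of the PBS (grey), control IgG (blue) and IgLON5 antibody groups (red, 1 symbol per mouse), with the group mean as a bar and values under 0.02 CPM drawn at 0.02. All 4 IgLON5 antibody mice lay above all PBS mice for Marco, Saa3, Cxcl13, Ighg2b, Igkc, Jchain, C3, Cd72, Adgre1, C1qa and Gfap and below them for Lyve1, while the groups overlapped for Irf7, Iglon5, Ighg2c and Mapt.

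An antibody-producing cell expresses 1 rearranged heavy and 1 rearranged light variable gene. Among 348 variable genes, 57 were tested and 37 called higher. Without mouse 8 the test called 23 variable genes higher, and without mouse 17 it called 33. The variable gene with the most reads in any PBS cortex had 5, so that no PBS cortex met the 10 counts of the filter. The tested variable genes thus entered through other libraries, and the number called among them depends on that filter. In PBS cortices 23 of the 37 had no read. The heavy variable gene with the most reads differed between the 4 cortices. Ighv1-81 took 58.2% of the heavy variable reads of mouse 17, and Igkv6-23 took 68.0% of its kappa variable reads. In the hippocampus of the same mouse the same genes took 5.55% and 7.20%. Ighv7-3 led in mouse 9 with 39.3% of 140 reads (6.72% in its hippocampus), and Ighv1-22 in mouse 16 with 30.6% (21.3%). In mouse 8 the leading heavy gene, Ighv1-78, took 13.4% in cortex and 13.1% in hippocampus. It took a larger share in mouse 9, at 16.4% of the cortex reads (exact 95% interval 10.7% to 23.6%) and 21.8% of the hippocampus reads, where it led. The leading genes were chosen for their share in cortex, so that a lower share in hippocampus is a description with no test. Variable genes have near-identical copies among which reads may be split, so that the identity of a single gene is uncertain.

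**Figure D4:**
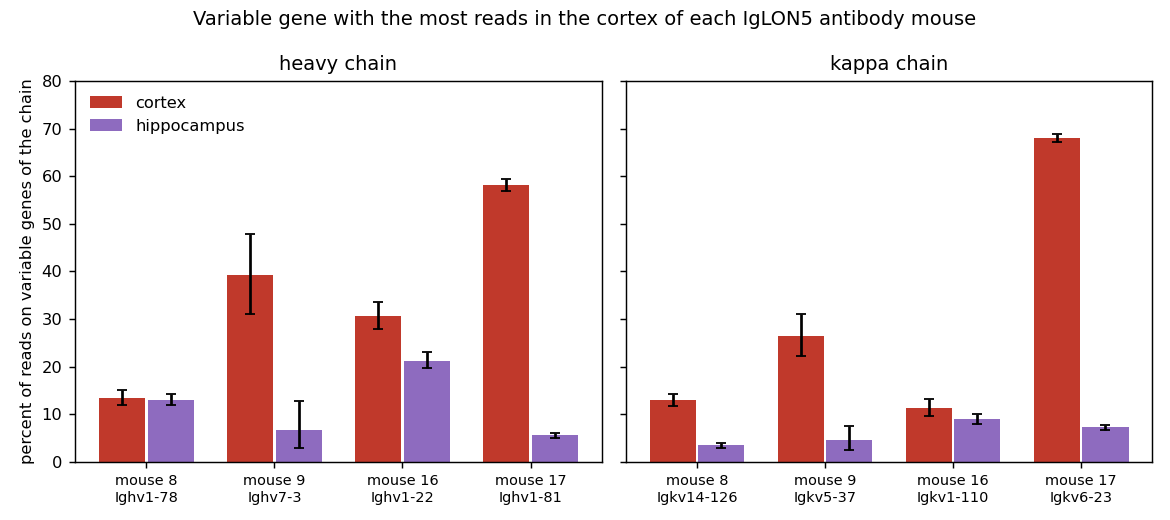
Share of reads (percent of the reads on variable genes of the chain) of the variable gene with the most reads in the cortex of each IgLON5 antibody mouse, in the cortex (red) and hippocampus (violet) of that mouse, for heavy and kappa chains. Error bars are exact 95% binomial intervals and cover counting error only. The shares of mouse 17 are 58.2% and 68.0% in cortex and 5.55% and 7.20% in hippocampus.

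Other markers of B cells and plasma cells rose in part. Of 9 tested plasma cell genes 2 were called higher, Jchain and Pou2af1, a B cell coactivator (log2 fold change 3.66), and of 11 tested B cell genes Cd79b, a chain of the B cell receptor (2.14), and Cd22, an inhibitory lectin of B cells (2.57). Both pairs of calls were kept without mouse 8. Ms4a1, which encodes CD20, had 0.0939, 0, 0, 0.158 and 0 CPM in PBS and 1.60, 0, 0.143 and 0.4662 CPM in IgLON5 antibody cortices and was not called (adjusted p = 0.076, edgeR). It was highest in mouse 8 and at 0 in mouse 9. Xbp1, Sdc1 and Tnfrsf17, further genes of plasma cells, had log2 fold changes of 0.12, 0.54 and -0.51, and none was called.

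Genes of complement and of Fcγ receptors, which read bound antibody, rose in part. Of 17 complement genes 8 were called higher and none lower, with a median log2 fold change of 1.12, and 6 of the 8 were kept without mouse 8. C1qa, a subunit of the recognition component C1q, rose from 46.1, 45.1, 45.5, 43.9 and 41.9 CPM in PBS to 106, 132, 113 and 107 CPM (log2 fold change 1.36 ± 0.14, adjusted p = 1.1e-06, edgeR). Its 4 values lay close together and far above the PBS values, and C1qb and C1qc, the other subunits, changed by 1.35 and 1.12. C3 (ENSMUSG00000024164.15, chromosome 17, 57203970 to 57228136, minus strand), on which all complement pathways converge, stood at 0.344, 0.237, 0.134, 0.378 and 0.165 CPM in PBS and 33.0, 16.6, 7.19 and 8.84 CPM in IgLON5 antibody cortices (log2 fold change 6.01 ± 0.61, adjusted p = 1.0e-06, edgeR, with a log2 fold change of 5.41 without mouse 8). It fell in the order of mice 8, 9, 17 and 16, and its control IgG values were 0.156 to 1.06 CPM. C4b of the classical pathway had 20.6, 29.95, 28.4, 54.3 and 33.9 CPM in PBS and 139, 89.8, 59.3 and 89.7 CPM in IgLON5 antibody cortices (log2 fold change 1.498 ± 0.25, adjusted p = 0.00035, edgeR), and the lowest of the latter, mouse 16, was near the highest PBS value, that of mouse 38. The receptors C3ar1 and C5ar1 rose by 2.57 and 2.22. The regulators Cd55 and Serping1, which restrain the cascade, were not called, at 0.30 and 0.53.

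Of 8 genes of Fcγ receptors and their signalling 5 were called higher, with 4 kept without mouse 8. Fcgr4, an activating receptor that binds mouse IgG2 subclasses, went from 0.125, 0.118, 0.302, 0.158 and 0.0275 CPM in PBS to 4.81, 6.89, 0.643 and 1.40 CPM in IgLON5 antibody cortices (log2 fold change 4.54 ± 0.70, adjusted p = 0.00012, edgeR). Fcer1g, the signalling chain shared by the activating receptors, had 6.33, 5.09, 6.02, 7.31 and 5.86 CPM in PBS and 28.1, 31.4, 13.2 and 13.4 CPM in IgLON5 antibody cortices (log2 fold change 1.81 ± 0.25, adjusted p = 3.0e-05, edgeR). For both genes mouse 9 was the highest and mouse 16 the lowest. The high-affinity receptor Fcgr1 rose by 1.53 and the inhibitory receptor Fcgr2b by 1.91. Fcgrt, the neonatal receptor that recycles IgG, was not called (-0.13).

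Genes that mark myeloid cells as a whole rose in part. Of 13 pan-myeloid genes 9 were called higher (median log2 fold change 1.66), and all 9 were kept without mouse 8. Adgre1, which encodes the macrophage marker F4/80, was at 5.42, 6.36, 6.15, 6.94 and 6.52 CPM in PBS and 44.2, 62.8, 17.3 and 25.7 CPM in IgLON5 antibody cortices (log2 fold change 2.57 ± 0.27, adjusted p = 1.1e-06, edgeR). Cd52, a surface glycopeptide of leukocytes, went from 1.10, 1.06, 0.773, 1.20 and 0.687 CPM to 16.7, 32.4, 6.07 and 7.39 CPM (log2 fold change 4.01 ± 0.43, adjusted p = 1.5e-06, edgeR, with a log2 fold change of 3.37 without mouse 9). Mouse 9 was the highest for both. Aif1, which encodes the microglial marker Iba1, had 4.32, 4.79, 4.70, 4.51 and 3.66 CPM in PBS and 13.1, 27.5, 8.76 and 9.66 CPM in IgLON5 antibody cortices (log2 fold change 1.74 ± 0.30, adjusted p = 0.00053, edgeR). Cd68, a lysosomal protein of phagocytes, was at 7.54 to 10.1 CPM in PBS and 16.6, 12.9, 15.5 and 13.2 CPM in IgLON5 antibody cortices, without overlap and with a change under 2-fold (log2 fold change 0.76 ± 0.11, adjusted p = 4.7e-05, edgeR).

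None of 12 homeostatic microglial genes was called (median 0.17). P2ry12, the ADP receptor of resting microglia, had 41.1, 43.8, 41.2, 34.3 and 43.3 CPM in PBS and 21.3, 22.6, 41.1 and 34.3 CPM in IgLON5 antibody cortices (adjusted p = 0.31, edgeR). The lower values were those of mice 8 and 9, and mice 16 and 17 lay within the PBS range. Fcrls, Olfml3 and Cx3cr1 were higher at an adjusted p under 0.05 with log2 fold changes of 0.54, 0.54 and 0.56. Of 15 genes of disease-associated microglia 4 were called, namely Tyrobp, Cst7, Clec7a and Itgax (1.15, 2.62, 3.13 and 2.25), all 4 kept without mouse 8. Apoe, Lpl, Axl and Spp1 of the same list were not called, with log2 fold changes of -0.02, 0.26, -0.01 and 0.19.

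Receptors that restrain myeloid cells rose in part. Of 12 inhibitory receptors and their effectors 8 were called (median 2.62), and all 8 were kept without mouse 8. Cd72, which recruits a tyrosine phosphatase, had 0.313, 0.532, 0.336, 0.473 and 0.275 CPM in PBS and 12.4, 19.7, 2.52 and 3.39 CPM in IgLON5 antibody cortices (log2 fold change 4.60 ± 0.53, adjusted p = 4.4e-06, edgeR, with a log2 fold change of 3.97 without mouse 9). Ptpn6, the phosphatase SHP-1 that such receptors recruit, rose by 1.72. Of 7 genes of the phagocyte NADPH oxidase and its partners 6 were called, and all 6 were kept without mouse 8. Cybb, its catalytic subunit, was at 0.783, 1.01, 1.08, 1.45 and 1.35 CPM in PBS and 45.3, 15.7, 3.40 and 7.82 CPM in IgLON5 antibody cortices (log2 fold change 3.99 ± 0.54, adjusted p = 2.7e-05, edgeR, with a log2 fold change of 2.97 without mouse 8). Among 15 lysosomal and phagocytic genes 4 were called (Ctss, Ctsc, Msr1 and Slc11a1), 3 of them kept without mouse 8, and the lysosomal membrane genes Lamp1 and Lamp2 were not (-0.01 and 0.16).

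Genes near silence in PBS and known from activated macrophages differed widely between the 4 mice. Marco (ENSMUSG00000026390.7, chromosome 1, 120474538 to 120505024, minus strand) had no read in the 5 PBS cortices and 21.3, 13.2, 0.167 and 0.359 CPM in IgLON5 antibody cortices, at least 396-fold higher (adjusted p = 0.0016, edgeR). Mice 8 and 9 held nearly all of it, and the call was lost without both (adjusted p = 0.16), with only the compared groups in the fit (adjusted p = 0.14) and without PBS mice 32, 33 and 38 (adjusted p = 0.079). Saa3, a serum amyloid A made by macrophages, had 0.0313, 0.0296, 0, 0.0315 and 0 CPM in PBS and 51.8, 42.6, 2.62 and 2.31 CPM in IgLON5 antibody cortices, a ratio of 1118 (exact 95% interval 382 to 5424, counting error only). Its call held without mice 8 and 9 (log2 fold change 6.82, adjusted p = 0.00062, edgeR). Acod1 had 36.8, 4.98, 0.190 and 1.17 CPM in IgLON5 antibody cortices and 1 read in the 5 PBS cortices together (adjusted p = 0.00062, edgeR). Mouse 8 was far above the other 3. The fitted log2 fold change of Acod1 was 10.13, or 7.72 without mouse 8 and 11.60 without PBS mouse 38, which held that read. Its call was lost without mice 8 and 9 (adjusted p = 0.19) and without PBS mice 32, 33 and 38 (adjusted p = 0.10).

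Sensors of microbial and cell-derived signals rose in part. Of 15 Toll-like receptor genes and partners 8 were called, among them Tlr2 and Tlr1, which sense lipoproteins as a pair, at 3.85 and 3.50, and Cd14 at 2.78, and 6 of the 8 were kept without mouse 8. Tlr3, Tlr4 and Tlr5 were not called (0.37, 0.59 and -0.22). Of 13 inflammasome genes 3 were called (Nlrp3, Casp4 and Naip2), with the call of Nlrp3 lost without mouse 8.

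Chemokine genes rose in part. Of 12 tested genes of CC chemokines and receptors 9 were called (median 4.01) and 8 kept without mouse 8, but 2 without mice 8 and 9. Ccl5, which draws T cells and monocytes, had 0.0939, 0.0591, 0, 0.0631 and 0.0275 CPM in PBS and 10.7, 5.27, 0.619 and 0.879 CPM in IgLON5 antibody cortices (log2 fold change 6.37 ± 0.86, adjusted p = 2.7e-05, edgeR, with a log2 fold change of 5.37 without mouse 8). Ccl3, a ligand of CCR1, had 0.0313, 0.0887, 0.134, 0.189 and 0.357 CPM in PBS and 68.1, 9.74, 0.476 and 3.42 CPM in IgLON5 antibody cortices (log2 fold change 6.93 ± 1.11, adjusted p = 0.00021, edgeR, with a log2 fold change of 4.73 without mouse 8). Mouse 8 was the highest and mouse 16 the lowest for both. Ccl2, the main monocyte attractant, followed the same order at 23.9, 4.55, 0.143 and 1.49 CPM against 0.0550 to 0.188 CPM in PBS, so that mouse 16 lay inside the PBS range. The receptor Ccr1 was not called (1.37).

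Of 10 tested CXC chemokine genes 6 were called and 4 kept without mouse 8. Cxcl13, the attractant of B cells, had 0, 0.0296, 0, 0 and 0.0275 CPM in PBS and 5.49, 9.67, 1.19 and 1.65 CPM in IgLON5 antibody cortices, a ratio of 308 (exact 95% interval 85.0 to 2553, counting error only, adjusted p = 4.8e-06, edgeR). It was highest in mouse 9, the mouse with the lowest immunoglobulin levels, and its fitted log2 fold change was 8.14, or 7.46 without mouse 9 and 6.51 without mice 8 and 9, where its call held (adjusted p = 0.00020, edgeR). Cxcl10, an interferon-induced attractant of T cells, had 0.0626, 0.237, 0.0672, 0.410 and 0.220 CPM in PBS and 88.1, 10.6, 0.405 and 7.76 CPM in IgLON5 antibody cortices, and mouse 16 lay within the PBS range. Cxcl12 and Cxcl14, which healthy brain makes, were not called (-0.22 and -0.09).

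Of 12 tested cytokine genes 5 were called, namely Il1a, Il1b, Il1rn, Tnf and Tnfsf8, each highest in mouse 8, and 3 were kept without mouse 8. Il1b had 0.157, 0.237, 0.504, 0.410 and 0.247 CPM in PBS and 42.0, 3.18, 0.976 and 2.03 CPM in IgLON5 antibody cortices (log2 fold change 5.27 ± 0.95, adjusted p = 0.00075, edgeR), and without mouse 8 the log2 fold change was 2.71 (adjusted p = 0.041). Il1rn, the natural antagonist of the IL-1 receptor, had 17.9, 1.12, 0.119 and 0.233 CPM in IgLON5 antibody cortices and 1 read in the PBS cortices together (adjusted p = 0.0019, edgeR). Tnf had 0.125, 0, 0.101, 0.0946 and 0 CPM in PBS and 11.96, 2.20, 0.119 and 0.753 CPM in IgLON5 antibody cortices (log2 fold change 5.85 ± 1.18, adjusted p = 0.0026, edgeR, with a log2 fold change of 3.91 without mouse 8), and mouse 16 lay inside the PBS range. Without mouse 8 the calls of Il1rn and Tnf were lost (adjusted p = 0.11 and 0.080). Il6 and Il12b were too low to be tested, at 2.07 and 6.22 CPM in mouse 8 and at most 0.177 and 0.197 CPM in the other 8 libraries. Il18, Il33 and Il34, which are made in healthy brain, were not called (0.05, -0.18 and -0.02).

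Genes of antigen presentation rose in part, in class I and in class II. Of 17 class I genes 10 were called and all 10 kept without mouse 8, and of 12 class II genes 8 were called and 1 was kept, which is given with no test of the difference between the classes. B2m, the invariant chain of class I, had 77.0, 58.7, 65.7, 73.2 and 57.5 CPM in PBS and 160.4, 177, 138 and 126 CPM in IgLON5 antibody cortices (log2 fold change 1.18 ± 0.11, adjusted p = 4.9e-07, edgeR). The heavy chain gene H2-K1 had 19.98, 19.5, 21.1, 29.6 and 18.6 CPM in PBS and 95.3, 68.5, 41.8 and 56.8 CPM in IgLON5 antibody cortices (log2 fold change 1.59 ± 0.18, adjusted p = 4.0e-06, edgeR). Neither gene overlapped between the groups. Nlrc5, the transactivator of class I genes, rose by 3.10 and the peptide transporter Tap1 by 1.96. The H2 class I genes are close relatives that may share reads.

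H2-Ab1, a class II β chain, had 2.38, 1.77, 2.49, 7.95 and 1.54 CPM in PBS and 31.9, 12.3, 12.1 and 15.6 CPM in IgLON5 antibody cortices (log2 fold change 2.48 ± 0.63, adjusted p = 0.023, edgeR, with a log2 fold change of 3.14 without PBS mouse 38). The highest PBS value was that of mouse 38, the library with the most meningeal RNA, and whether the 2 are linked was not tested. The call was lost without any one of PBS mice 14, 32, 33 and 74 and of IgLON5 antibody mouse 8, and the same 5 libraries decided Cd74, the invariant chain. Ciita, the transactivator of class II, was not called (0.36, adjusted p = 0.76, edgeR).

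Promoters of both classes are known to carry a Y box, an inverted CCAAT element. The letters CTGATTGG, searched on both strands from 250 bases before to 50 bases after the RefSeq start (GRCm38.p6), were found in 4.10% of 32851 promoters and 6.18% of the tested genes with a promoter. They were found in 6 of the 9 called class I genes and 3 of the 5 called class II genes that had one, in 7 of 15 class I and 3 of 8 class II members with one whether called or not, and in 5.40% of the 315 called genes with one. Of H2-K1 (chr17:34000324-34000483, minus strand, match from base -6 and across the start, on the strand opposite to the gene, so that it reads as an upright CCAAT) and H2-Eb1 (chr17:34305717-34305876, plus strand, match from base -62), 1 of each class, 150 bases before to 10 bases after the RefSeq start are shown 5′ to 3′, with the match in capitals. A match describes the letters and not a site in use.
H2-K1: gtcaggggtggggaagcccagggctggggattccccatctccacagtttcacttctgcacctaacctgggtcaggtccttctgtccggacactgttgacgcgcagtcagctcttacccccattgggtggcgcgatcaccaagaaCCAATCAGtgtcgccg
H2-Eb1: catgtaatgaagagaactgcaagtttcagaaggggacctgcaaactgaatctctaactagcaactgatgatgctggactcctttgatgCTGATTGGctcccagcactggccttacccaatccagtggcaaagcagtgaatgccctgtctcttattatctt

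Most genes induced by type I interferon were called higher, with the summed level highest in mouse 8 and at the PBS level in mouse 16. Of 25 genes 21 were called (median 1.96), with 7 kept without mouse 8 and 1 without mice 8 and 9. Their summed level was 113 to 138 CPM in PBS, 116 to 147 CPM in control IgG and 512, 319, 132 and 205 CPM in IgLON5 antibody cortices, so that mouse 16 lay inside the PBS range. Irf7, the transcription factor that amplifies the interferon response, had 1.75, 1.42, 1.38, 2.87 and 1.07 CPM in PBS and 19.5, 12.6, 1.64 and 5.25 CPM in IgLON5 antibody cortices (log2 fold change 2.51 ± 0.48, adjusted p = 0.0015, edgeR, with a log2 fold change of 1.91 without mouse 8). Isg15, a ubiquitin-like modifier, had 1.44, 1.39, 1.58, 1.89 and 0.907 CPM in PBS and 16.9, 8.12, 1.79 and 3.26 CPM in IgLON5 antibody cortices, and its call was lost without mouse 8 (adjusted p = 0.0052 and 0.13, edgeR). Both genes had mouse 16 within the PBS range. Zbp1, a sensor of Z-form nucleic acids, was the gene of this list that kept its call without mice 8 and 9, with 0.219, 0.0887, 0.269, 0.504 and 0.110 CPM in PBS and 7.09, 3.14, 0.976 and 1.56 CPM in IgLON5 antibody cortices (log2 fold change 3.74 ± 0.59, adjusted p = 0.00017, edgeR, with a log2 fold change of 2.96 without mouse 8). Bst2, which tethers virus particles to the membrane, had 2.004, 1.95, 3.13, 4.70 and 1.68 CPM in PBS and 14.3, 16.1, 4.05 and 7.60 CPM in IgLON5 antibody cortices (log2 fold change 1.96 ± 0.34, adjusted p = 0.00049, edgeR), with mouse 16 under PBS mouse 38.

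The interferon-inducible GTPases of the Gbp and Irg families, which act on the membranes of pathogen vacuoles, summed to 36.9 to 50.8 CPM in PBS and 324, 128, 50.1 and 83.3 CPM in IgLON5 antibody cortices. Of 15 tested genes 11 were called, with 2 kept without mouse 8. Gbp2 had 2.79, 2.87, 3.50, 5.80 and 2.23 CPM in PBS and 60.3, 17.3, 5.10 and 9.68 CPM in IgLON5 antibody cortices (log2 fold change 2.75 ± 0.58, adjusted p = 0.0039, edgeR, with a log2 fold change of 1.63 without mouse 8). Mouse 16 lay under the highest PBS value, that of mouse 38, and without mouse 8 the adjusted p was 0.14. Members of this family share sequence, so reads may be split among them. Igtp rose by 1.79.

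Interferon acts on its target genes through a response element of repeated GAAA. The letters GAAA, any 2 bases and GAAA again, searched on both strands of the same RefSeq windows, were found in 3.44% of the 32851 promoters. They were found in 3.76% of 13405 tested genes with a promoter and in 18.4% of the 315 called genes with one. They were found in 7 of 12 called type I interferon genes and 8 of 9 called GTPase genes that had a promoter in the table. Whether called or not, 8 of 16 type I interferon and 10 of 11 GTPase members with a promoter held them. The κB letters, GGGA and TTCC with any 2 bases between, were found in 1.47% of the promoters searched and 5.40% of the called genes with one. To show where these letters lie, 2 promoters of each list are printed over the same 160 bases, 5′ to 3′, with all matches of the paired GAAA in capitals. Isg15 (chr4:156200809-156200968, minus strand) held 3 overlapping matches from base -78, Bst2 (chr8:71537463-71537622, minus strand) 2 overlapping matches from base -130, and Igtp (chr11:58199406-58199565, plus strand) 1 match from base -34. Gbp2 (chr3:142620513-142620672, plus strand) held 1 match on the opposite strand from base -59.
Isg15: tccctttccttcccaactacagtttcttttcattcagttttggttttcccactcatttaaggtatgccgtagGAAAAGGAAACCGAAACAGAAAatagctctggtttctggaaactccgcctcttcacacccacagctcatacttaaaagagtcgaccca
Bst2: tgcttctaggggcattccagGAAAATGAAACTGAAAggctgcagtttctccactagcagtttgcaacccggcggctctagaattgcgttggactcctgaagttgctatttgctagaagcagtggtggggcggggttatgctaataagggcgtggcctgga
Igtp: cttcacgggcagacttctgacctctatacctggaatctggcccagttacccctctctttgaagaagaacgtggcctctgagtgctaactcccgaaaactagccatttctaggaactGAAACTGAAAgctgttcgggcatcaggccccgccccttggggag
Gbp2: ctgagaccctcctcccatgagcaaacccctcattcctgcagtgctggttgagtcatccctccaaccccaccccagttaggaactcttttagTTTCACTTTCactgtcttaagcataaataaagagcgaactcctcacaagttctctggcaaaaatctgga

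**Figure D5:**
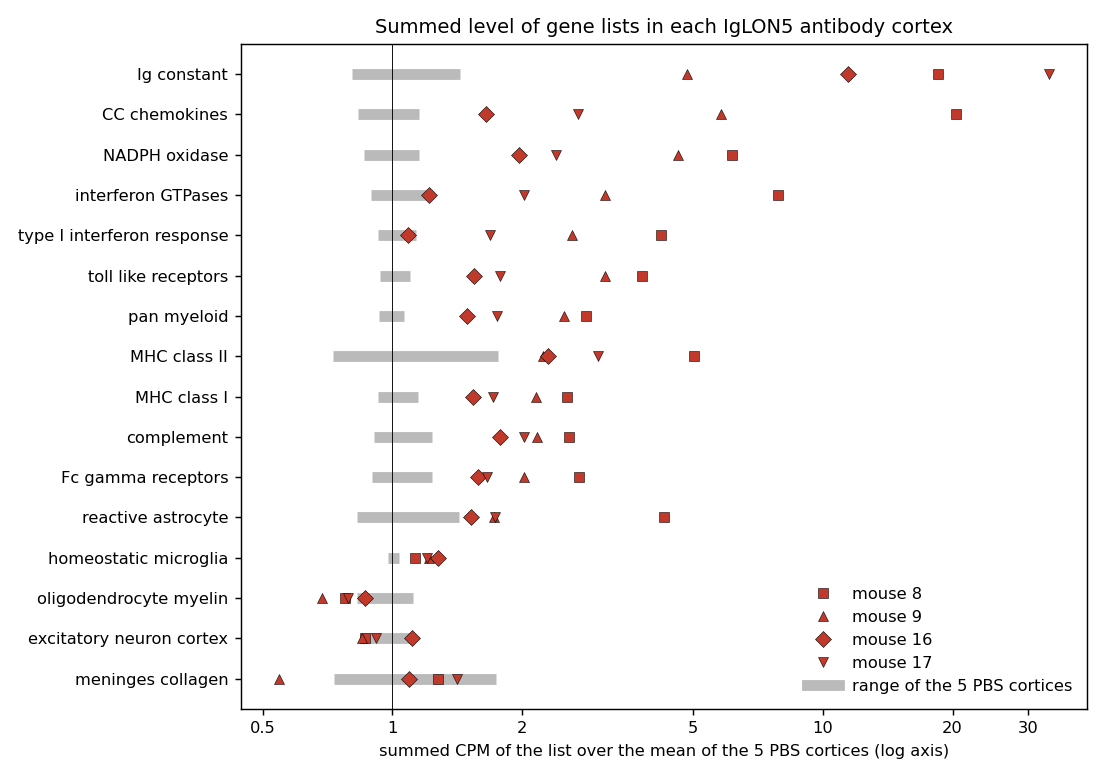
Summed CPM of 16 gene lists in each IgLON5 antibody cortex, divided by the mean of the 5 PBS cortices (log axis), with the range of the PBS cortices as a grey bar and 1 symbol per mouse. The type I interferon list reads 512, 319, 132 and 205 CPM in mice 8, 9, 16 and 17 against 113 to 138 CPM in PBS, and mouse 16 sits within the grey bar.

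Of 16 reactive astrocyte genes 7 were called, with 1, Lcn2, kept without mouse 8, and of 13 homeostatic astrocyte genes 0 were called (median -0.02, 0 at an adjusted p under 0.05), with no test of the difference between the lists. Gfap, the intermediate filament of astrocytes, had 243, 219, 244, 386 and 237 CPM in PBS and 1289.6, 532, 441 and 524 CPM in IgLON5 antibody cortices, without overlap (log2 fold change 1.39 ± 0.25, adjusted p = 0.00071, edgeR). Without mouse 8 its log2 fold change was 0.91, under the fold threshold, with an adjusted p of 0.0096. Serpina3n, a secreted protease inhibitor, had 7.61, 7.54, 7.16, 7.69 and 7.81 CPM in PBS and 104, 29.8, 11.7 and 13.8 CPM in IgLON5 antibody cortices (log2 fold change 2.39 ± 0.46, adjusted p = 0.0016, edgeR, with a log2 fold change of 1.27 without mouse 8). All 4 mice were above PBS, and the call was lost without mouse 8 (adjusted p = 0.054). Of 12 TNF signalling genes 8 were called, none kept without mouse 8. Of 11 tested genes of the IL-6 family and its signalling, Osmr, the oncostatin M receptor, was called (1.79), and its call was lost without mouse 8.

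Markers of blood leukocytes were partly raised. Of 8 monocyte genes 5 were called, among them Ly6c2 (4.54) and Ccr2, the receptor of CCL2 (3.03), and these 2 were the calls kept without mouse 8. Ly6c2 had 0.0313, 0.0296, 0.101, 0.0946 and 0 CPM in PBS and 2.80, 1.26, 0.214 and 0.699 CPM in IgLON5 antibody cortices. Of 11 tested T cell genes Cd3g and Icos were called, both kept without mouse 8, at 0.516, 0.325, 0.286 and 0.161 CPM and 0.543, 0.794, 0.286 and 0.323 CPM in IgLON5 antibody cortices and at most 0.0939 and 0.207 CPM in PBS. Cd3d, Cd3e, Cd8a and Cd8b1 were too low to be tested. Of 7 tested neutrophil genes Csf3r was called (1.31), a receptor that microglia carry too, with the call kept without mouse 8, while S100a8 and S100a9 were not (1.30 and 1.74) and Ly6g, Elane, Cxcr2 and Retnlg were too low to be tested. Icam1, an adhesion molecule of activated endothelium and microglia, rose by 2.05, and Vcam1 was not called (0.46, adjusted p = 0.050, edgeR). Of 13 endothelial, 9 pericyte, 9 choroid plexus, 12 meningeal and 5 erythrocyte genes tested, 0 were called, and so were 0 of 7 oligodendrocyte precursor, 8 ependymal, 10 hippocampal and 9 striatal markers. Of 8 genes of NK and cytotoxic cells 2 were tested, and Klrd1, an NK cell receptor chain, was called (2.13), with the call lost without any one of PBS mice 33 and 74 and IgLON5 antibody mouse 8. No gene of the 16 of proliferation was called, and Mki67 had an adjusted p of 0.031 (edgeR) at a log2 fold change of 0.94.

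Neuronal lists gave 1 call, that of Atf3. Iglon5 (ENSMUSG00000013367.5, chromosome 7, 43472904 to 43490075, minus strand), the gene of the antigen, had 37.8, 29.4, 27.8, 28.9 and 28.7 CPM in PBS and 27.4, 28.1, 35.7 and 29.7 CPM in IgLON5 antibody cortices, with a log2 fold change of -0.01 ± 0.09 (adjusted p = 0.99, edgeR). The groups overlapped. The other IgLON genes Opcml, Ntm, Lsamp and Negr1 had log2 fold changes of -0.09, -0.01, -0.14 and -0.09. Mapt, which encodes Tau, had 658, 587, 613, 545 and 618 CPM in PBS and 549.9, 565, 607 and 544 CPM in IgLON5 antibody cortices (log2 fold change -0.09 ± 0.05, adjusted p = 0.67, edgeR), again with overlap. Of Mapt and 19 genes of Tau kinases and phosphatases, 0 reached an adjusted p under 0.05, and their log2 fold changes ran from -0.13 to 0.01. The counts at an adjusted p under 0.05 were likewise 0 of 13 cortical excitatory neuron, 10 inhibitory neuron, 16 neuropeptide, 12 synapse, 17 potassium channel, 15 sodium and calcium channel, 20 glutamate and GABA receptor and 18 activity-regulated genes. Fos, Arc and Npas4, which neuronal firing induces, had log2 fold changes of 0.35, 0.22 and -0.04. Nefl, a neurofilament released from injured axons, was at 0.00, and Atf3, an injury-induced transcription factor, was called (1.34, adjusted p = 0.041, edgeR) with the call lost without any one of PBS mice 32, 33, 38 and 74 and IgLON5 antibody mice 8 and 17. For the 13 oligodendrocyte genes the median was -0.34 (log2), with 0 at an adjusted p under 0.05, and the myelin gene Mbp was at -0.32. This median in control IgG against PBS was -0.28.

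Lyve1 (ENSMUSG00000030787.4, chromosome 7, 110850607 to 110863239, minus strand), a hyaluronan receptor of lymphatic endothelium and of macrophages at vessels and meninges, was the 1 gene called lower. It had 2.04, 1.57, 1.51, 2.36 and 1.18 CPM in PBS and 0.516, 0.361, 0.976 and 0.628 CPM in IgLON5 antibody cortices, without overlap (log2 fold change -1.44 ± 0.28, adjusted p = 0.0018, edgeR). Control IgG cortices spanned 0.905 to 2.17 CPM. The call was kept in each fit that left out 1 library and without both PBS mouse 38 and IgLON5 antibody mouse 9, whose meningeal RNA was highest and lowest (adjusted p = 0.028). It was lost without mice 8 and 9 (adjusted p = 0.16) and without PBS mice 32, 33 and 38 (adjusted p = 0.064). Other genes of these macrophages, Mrc1, Cd163, F13a1 and Pf4, were not called (0.50, -0.52, 0.16 and -0.14), while Ms4a7 rose by 2.38. Among the 15 genes lower at an adjusted p under 0.05, 2 are named after their values were seen. Slc2a5, the fructose transporter of microglia, had 4.20, 5.20, 4.07, 4.89 and 4.59 CPM in PBS and 2.58, 1.52, 3.93 and 3.25 CPM in IgLON5 antibody cortices (log2 fold change -0.69 ± 0.16, adjusted p = 0.013, edgeR). Crybb1, a crystallin gene also expressed in microglia, had 3.88, 4.38, 3.43, 3.31 and 4.45 CPM in PBS and 1.98, 2.24, 2.45 and 2.87 CPM in IgLON5 antibody cortices (log2 fold change -0.70 ± 0.18, adjusted p = 0.027, edgeR). Neither passed the threshold without mouse 8.

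The hippocampus of the same mice gave 519 genes called higher than PBS (2.56%), and 382 of the cortex calls were among them, which is 84.1% of the cortex and 73.6% of the hippocampus calls. The 2 tissues come from the same mice, so that these shares are a description. Over the 454 cortex calls the median log2 fold change was 2.26 in cortex and 2.12 in hippocampus. In a test of the difference between the tissues 1 gene passed, Ighg2c (0.00493% of the tested genes), by -3.61 on the log2 scale (cortex minus hippocampus, adjusted p = 0.0019, edgeR). In hippocampus it had 0.0297 to 0.180 CPM in PBS and 2.56, 1.69, 1.502 and 1.09 CPM in IgLON5 antibody mice, so that the PBS ranges of the 2 tissues did not overlap. The type I interferon list had 21 calls in cortex and 9 in hippocampus (medians 1.96 and 1.48), and the immunoglobulin constant list 9 and 10 (7.07 and 8.69). No gene of either list other than Ighg2c passed the test of the difference.

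Control IgG against PBS in cortex, tested in the same fit, gave 0 called genes (0% of the tested genes), with a smallest adjusted p of 0.40, 1650 genes at an unadjusted p under 0.05 and 0 called genes in DESeq2, which gave 11 genes an adjusted p under 0.05 at a smaller fold. This comparison shares its PBS libraries with the one above. Median log2 fold changes of control IgG and of IgLON5 antibody against PBS were 1.12 and 7.07 for immunoglobulin constant genes, 0.09 and 1.12 for complement, and 0.07 and 1.96 for the type I interferon list. For Ighg2b, Saa3, Cxcl13, C1qa, Adgre1, Cd72 and B2m the highest control IgG values were 0.494, 0.160, 0.0702, 58.1, 8.61, 0.586 and 79.0 CPM, and the lowest IgLON5 antibody values were 13.8, 2.31, 1.19, 106, 17.3, 2.52 and 126 CPM. In each of these 7 genes, chosen after their values were seen, the 2 antibody groups did not overlap, and over all tested genes every IgLON5 antibody cortex lay above every control IgG cortex in 745 (3.68%). The 2 groups did overlap in the type I interferon sum, where mouse 16 lay within the control IgG range, and in Irf7, Isg15 and Cxcl10, whose highest control IgG values were 1.86, 2.23 and 0.499 CPM against 1.64, 1.79 and 0.405 CPM in mouse 16. Ccl2 overlapped too, at 0.160 and 0.143 CPM.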

How the data were processed

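RNA was extracted from dissected cortex and hippocampus, and poly(A) libraries of known strand were sequenced in pairs of reads. The authors aligned the reads with STAR and deposited their raw read counts in a single table, 1 row per gene and 1 column per library, with no normalization. The counting program is not given in the sources used here. The table holds 55487 genes on GRCm38, of which 55141 have a symbol and 54349 match GENCODE M21, the source of positions, and 0 columns were left unassigned.

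A gene was tested if 4 or more of the 27 libraries had 10 or more counts (20271 genes). The model, fitted by edgeR 4.0.16 under R 4.3.3 with TMM factors and the quasi-likelihood F test, had 1 term for each of the 6 combinations of tissue and treatment, with Benjamini-Hochberg adjustment over all tested genes. DESeq2 1.42.0 was an alternative. The scripts were tested on simulated data. Errors of log2 fold changes are standard errors. Within a group, no 2 libraries repeated each other (smallest chi-square per degree of freedom 4.82). The mouse number pairs the tissues, since both came from 1 animal. Deviations of same-numbered libraries from their group means correlated over genes at 0.107 to 0.622, and 7 of 9 libraries correlated best with their own number, PBS mice 32 and 33 not.

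Genes named were the 10 called genes with the largest change whose groups did not overlap and whose mean was at least 1 CPM, up to 4 called members of each of 52 lists or else 2 members with the highest level, and genes of the study's theme. Other list members were named after their values were seen. Members and lists were chosen with earlier results of these data known. Another 4 settings that leave out sets of mice were added after the data were seen, namely without PBS mice 32, 33 and 38, without IgLON5 antibody mice 8 and 9, without PBS mouse 38 and IgLON5 antibody mouse 9, and with only mice numbered 8 to 17. In all tests within cortex, leaving out a mouse removed its cortex library, and its hippocampus library stayed in the fit. Promoter sequences are RefSeq's (GRCm38.p6), found for 13405 of the tested genes. Intervals cover counting error only. Some list members are not reported here.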

Additional observations from a re-analysis of the deposited data

Results flagged for a closer look

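Gaps between 1 library and the rest of its group were tested for a set of 41 genes, in 82 groups of 4 or 5 mice, and 14 (17.1%) passed Dixon's 95% value. The set does not hold every gene whose values are printed above. Cxcl10, also highest in mouse 8, was not in it, so that the counts hold for the 41 genes alone. Chance gives about 1 in 20 among independent, normally distributed values, which CPM of co-varying genes with few reads are not. A group with a read in 1 library alone passes by construction. The rate that chance gives in these groups is thus not known, and 14 is a count only. In IgLON5 antibody cortex 5 of these put mouse 8 highest, with Acod1 at 36.8 CPM, Ccl3 at 68.1 CPM, Il1b at 42.0 CPM, Il1rn at 17.9 CPM and Gfap at 1289.6 CPM, and 1 put mouse 17 highest, with Ighg2b at 285 CPM. Among PBS cortices mouse 38 was highest for Acod1 (0.0315 CPM, 1 read), H2-K1 (29.6 CPM), H2-Ab1 (7.95 CPM) and Gfap (386 CPM), mouse 14 for Ighg2b (0.313 CPM), Igkc (1.06 CPM) and Iglon5 (37.8 CPM), and mouse 33 for Il1rn (0.0336 CPM, 1 read). Mouse 38 was also the PBS library with the most meningeal RNA (528 CPM in the summed markers), and the part of that in the values above was not tested.

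The change with IgLON5 antibody differed between tissues for Ighg2c, by -3.61 on the log2 scale (cortex minus hippocampus, adjusted p = 0.0019, edgeR). Its PBS level was 1.61 to 2.94 CPM in cortex and 0.0297 to 0.180 CPM in hippocampus, while IgLON5 antibody libraries had 2.36 to 3.21 and 1.09 to 2.56 CPM. All 4 hippocampi of IgLON5 antibody mice were above all PBS hippocampi, and the cortices overlapped.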

How the results depend on the processing

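The 454 genes higher in IgLON5 antibody cortex became 217 with at least 10 counts asked of every cortex library, a filter that removes genes absent in PBS, 276 with only the compared groups in the fit, and 261 to 526 with 1 library left out (lowest without IgLON5 antibody mouse 8, highest without mouse 16). Of settings added after the data were seen, leaving out PBS mice 32, 33 and 38 gave 218, leaving out IgLON5 antibody mice 8 and 9 gave 142, and only mice numbered 8 to 17 gave 0, the last with 1 PBS library that is assumed to vary like the other groups. The 1 lower gene became 4 with no count filter, 2 with only the 14 cortex libraries, 15 with no fold threshold, 1 to 2 with 1 library left out and 0 in each of these 3 added settings. DESeq2 called 473 genes higher, 445 of them among the 454, and 1 lower. RLE size factors gave 457 and 1. The single gene that differed between tissues became 1 to 2 with 1 mouse left out and was 1 with the mouse as a replicate block. The block was run for this difference alone, because within cortex each mouse has 1 library. Among the 41 genes tested above for gaps, the calls of Marco, Gbp2, Il1rn, Irf7, Isg15 and Serpina3n were lost with only the compared groups. Without PBS mice 32, 33 and 38 the same calls and those of Acod1, Ccl3, Il1b, Tnf, H2-Ab1 and Lyve1 were lost. The cause of these changes was not tested.

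Among the same 41 genes the sign changed for 2 that were not called. Ighg2c was -0.070 with only mice numbered 8 to 17. Iglon5 was 0.012 with no count filter, 0.0026 with the stricter filter, 0.0065 with only the cortex libraries, 0.0049 with only the compared groups, -0.10 to 0.082 with 1 library left out, 0.10 without mice 8 and 9 and 0.0014 without PBS mouse 38 and mouse 9. Depth limits the genes with few reads in PBS, whose fold changes are bounds or have wide intervals.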
